A study of Mus musculus with 4 samples.

Results

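In iRhom KO cells, 17 named protein-coding genes were expressed that were close to silent in Control cells. They are Igfbp7, Ggh, Dbt, Tprg, Lcn2, Anxa6, Meig1, Rarres2, Clec1a, Ak3, Sema3f, Basp1, Plac1, F11r, Dach2, Ccl20 and Spats2l. The members were chosen by their FPKM in these same libraries. A gene was taken when the mean of the 2 Control libraries lay under 0.3 FPKM and both iRhom KO libraries reached at least 1 FPKM, where FPKM are fragment counts scaled by transcript length and by the number of mapped fragments. Of the 21724 rows of the table, 9329 were under the Control limit and 26 met both limits, which is 0.279% of the rows under the Control limit. From these, 9 were left out by name, namely 6 predicted or Riken genes and Krt8, Cx3cl1 and Adm. The same limits with the groups exchanged also gave 17 genes.

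The cells were CT26, a mouse colon carcinoma line, kept in culture without further treatment. RNA was sequenced in 2 Control libraries (S17 and S19) and 2 iRhom KO libraries (S18 and S20), which the study calls messenger RNA-seq. The study made its knockout of Rhbdf1, the gene of the inactive rhomboid protein iRhom1, with a lentiviral CRISPR vector carrying Cas9 and puromycin resistance, and grew the cells from a single clone, so a property of that clone and an effect of the knockout cannot be told apart. The labels call the other cells only Control, and the study describes its sequencing comparison as one with WT cells. The study speaks of independent experiments without saying how the libraries fall into them, and the labels do not say whether libraries of the same group were grown separately, so each p-value below measures the spread between these libraries, which may be technical. Read counts are not in the table. From the smallest steps by which low FPKM differ, the depth was estimated, roughly, at 50000000 to 53500000 fragments per library. The FPKM listed for Rhbdf1 were 0.538 and 0.890 in Control and 0.0940 and 0.0584 in iRhom KO, but in 3 of 4 libraries they equal those listed for Apobec2, so they were not used as a check of the knockout.

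Genes at 0 in both libraries of a group could not be found by this rule. No row of the table is at 0 in both Control libraries, so a gene that was fully off in Control and on in iRhom KO is not analysed here. The marker list of colon epithelium goes only partly with the label of the line. Of its 20 symbols 7 have a row, and Epcam and Cdh1 have none in the table used here. Cdx2, Vil1, Cdh17 and Gpa33 reached at most 0.270, 0.0163, 0.153 and 0.0462 FPKM in any library. Krt20 lay at 10.2 and 10.5 FPKM in Control and 13.6 and 11.3 FPKM in iRhom KO. Krt18 lay at 8.58 and 9.39 FPKM against 17.4 and 18.3 FPKM, and Krt8 at 0.0278 and 0 FPKM against 6.80 and 7.03 FPKM.

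A cell keeps most of its genes silent, and which ones depends on its lineage, its chromatin and the signals it receives. A gene that is off usually lacks the activating factors at its promoter, carries repressive chromatin, or, at promoters rich in the dinucleotide CpG, can be shut by DNA methylation. The 17 genes serve unrelated tasks: secreted and surface proteins, enzymes of mitochondria and lysosomes, and other intracellular proteins, some of them known from testis or development.

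The silent and the expressed state lay far apart for every member, as the rule required. Control means ran from 0.0130 to 0.257 FPKM with a median of 0.106, and iRhom KO means from 1.14 to 9.08 FPKM with a median of 1.59. Even in iRhom KO these were weakly expressed genes: the median over all 10271 genes tested was 5.84 FPKM, 10 of the 17 had a mean under 2 FPKM, and their percentiles among the tested genes ran from 7.03 to 62.5. The 2 iRhom KO libraries gave close values. S18 was the higher one for 10 members and S20 for 7, and the largest ratio between them was 1.27, for Tprg. Control levels rest on few reads, an estimated 3.32 to 136 fragments per gene over both Control libraries together, whereas each member had at least 70.4 estimated fragments in each iRhom KO library. For 7 members with under 10 Control fragments no ratio between the groups is given. Since RNA was taken from bulk cultures, a few cells with much RNA of a gene and many cells with little cannot be told apart.

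**Figure D1:**
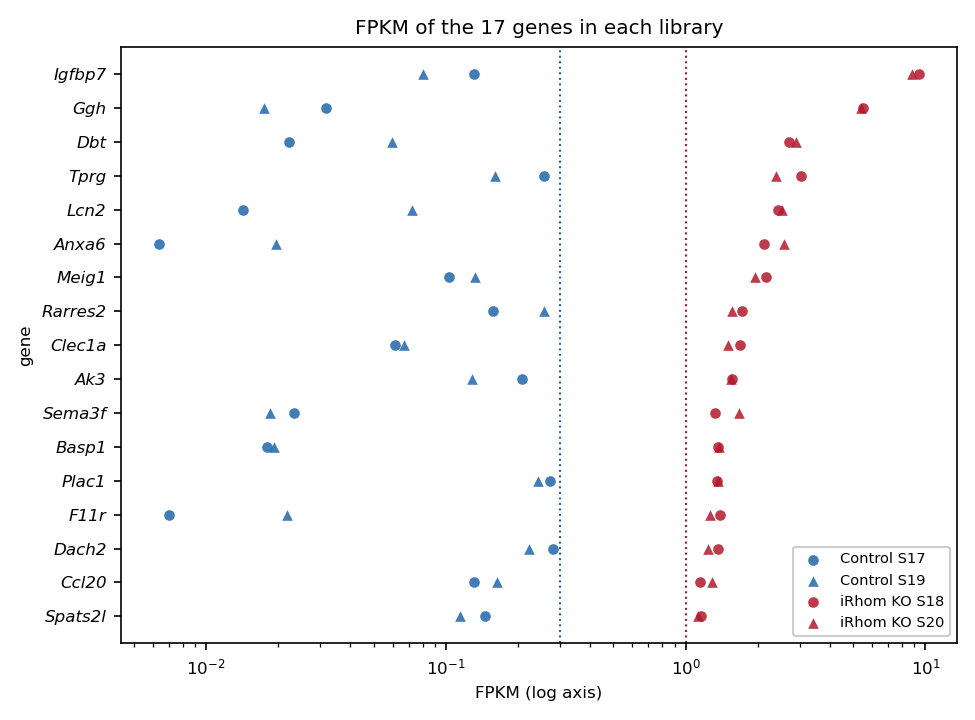
FPKM on a log axis of the 17 genes (rows) in the Control libraries S17 and S19 (blue) and the iRhom KO libraries S18 and S20 (red), ordered by the iRhom KO mean. Dotted lines mark the limits of the rule at 0.3 and 1 FPKM. Every Control point lies under 0.3 FPKM, and Igfbp7, at 9.40 and 8.76 FPKM, and Ggh, at 5.51 and 5.39 FPKM, stand to the right of the other 15 genes.

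On log2 of FPKM plus 0.5, the scale of the tests, the difference between iRhom KO and Control (a positive value is higher in iRhom KO) ran from 1.26 for Dach2 to 3.98 for Igfbp7, with a median of 1.89, beside a median of -0.10 over all tested genes. The pseudocount of 0.5 lies above every Control mean, so these differences understate the change. All 17 were called higher by limma at an adjusted p under 0.05, where 32.6% of the tested genes were called, 10.7% higher (1096) and 21.9% lower (2254). With trimmed mean scaling of the libraries these counts were 1659 and 1709, and with quantile normalization 1609 and 1553. The rule used the same values, so this count is no evidence about the members, and none of their single differences is given a p.

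The limits cut through a continuous range. Just inside the Control limit were Plac1 (0.257 FPKM), Dach2 (0.252 FPKM) and Tprg (0.209 FPKM), and just outside it, with both iRhom KO libraries above 1 FPKM, were Ptprq (0.321 FPKM), Olfml3 (0.335 FPKM) and Ces1a (0.348 FPKM). Just inside the iRhom KO limit, by their lower library, were Spats2l (1.12 FPKM), Ccl20 (1.15 FPKM) and Dach2 (1.24 FPKM), and just outside it were Junos (0.983 FPKM), Hbb-y (0.930 FPKM) and Vwa1 (0.927 FPKM).

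**Figure D2:**
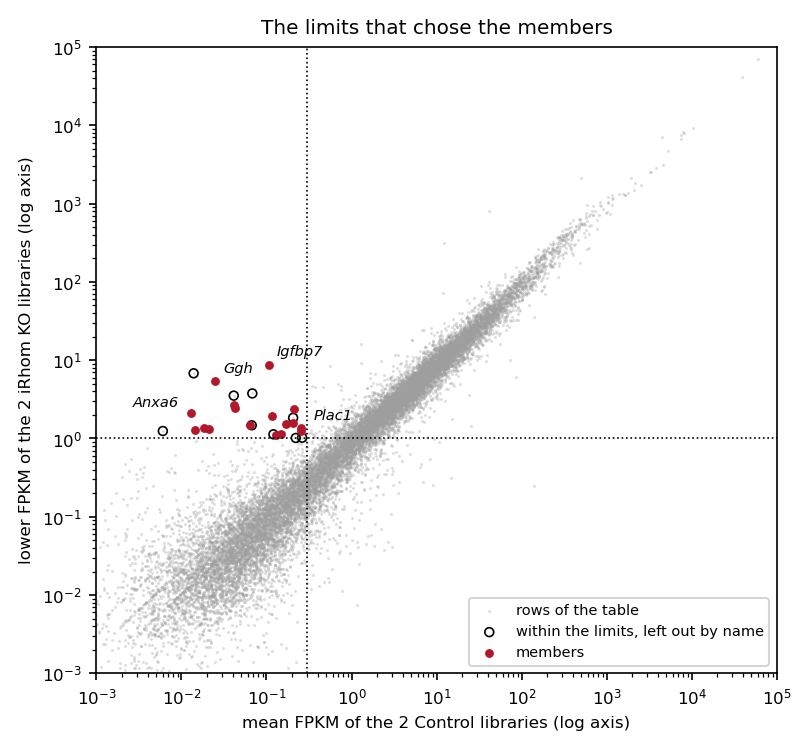
Each row of the table by its mean FPKM in Control (horizontal, log axis) and its lower FPKM of the iRhom KO libraries (vertical, log axis). The dotted lines are the limits of 0.3 and 1 FPKM, the 17 members are red, and the 9 rows that met both limits but were left out by name are open circles. The members lie in the upper left corner, well off the diagonal band that holds most rows.

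Promoter sequences of RefSeq (GRCm38.p6) were matched by symbol for 11 of the 17 genes, in 15 windows that reach from 250 bases before to 50 bases after a transcription start. Ggh, Dbt, Anxa6, Rarres2, Clec1a and Sema3f had no window. The stretches before the start of the 5 matched genes with the highest iRhom KO level are shown to let the promoter types be compared, with each CpG in capitals. They are Igfbp7 (chr5:77408046-77408295, minus strand), Tprg (chr16:25286567-25286816, plus strand), Lcn2 (chr2:32387740-32387989, minus strand), Meig1 (chr2:3422649-3422898, minus strand, the start farthest upstream) and Ak3 (chr19:29047962-29048211, minus strand).
Igfbp7: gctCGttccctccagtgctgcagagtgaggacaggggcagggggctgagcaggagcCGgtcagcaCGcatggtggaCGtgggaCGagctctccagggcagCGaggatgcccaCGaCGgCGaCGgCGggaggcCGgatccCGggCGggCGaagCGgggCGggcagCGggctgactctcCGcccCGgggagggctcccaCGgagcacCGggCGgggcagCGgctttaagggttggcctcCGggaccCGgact
Tprg: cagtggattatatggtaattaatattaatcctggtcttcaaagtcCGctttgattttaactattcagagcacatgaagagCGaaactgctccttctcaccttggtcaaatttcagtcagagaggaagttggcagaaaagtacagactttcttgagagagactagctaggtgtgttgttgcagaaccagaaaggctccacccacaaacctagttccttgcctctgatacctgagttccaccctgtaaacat
Lcn2: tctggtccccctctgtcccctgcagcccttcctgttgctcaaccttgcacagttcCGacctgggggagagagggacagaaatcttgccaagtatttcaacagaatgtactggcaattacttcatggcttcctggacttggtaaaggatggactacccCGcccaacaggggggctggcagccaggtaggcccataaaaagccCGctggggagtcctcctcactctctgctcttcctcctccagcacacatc
Meig1: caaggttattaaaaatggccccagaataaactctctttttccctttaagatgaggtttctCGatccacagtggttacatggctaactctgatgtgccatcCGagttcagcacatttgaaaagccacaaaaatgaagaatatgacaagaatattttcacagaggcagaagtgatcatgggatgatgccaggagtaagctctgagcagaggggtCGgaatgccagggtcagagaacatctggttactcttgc
Ak3: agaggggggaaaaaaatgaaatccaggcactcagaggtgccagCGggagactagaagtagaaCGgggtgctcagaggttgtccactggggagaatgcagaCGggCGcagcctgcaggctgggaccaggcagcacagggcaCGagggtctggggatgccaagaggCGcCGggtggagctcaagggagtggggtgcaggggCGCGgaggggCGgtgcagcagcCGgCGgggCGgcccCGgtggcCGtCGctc

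In these 250 bases Igfbp7 has 26 CpG and Ak3 16, while Lcn2 and Meig1 have 3 each and Tprg 2. Both kinds of promoter are thus among the members. A window was counted as CpG-rich when its G+C content was at least 50% and its CpG frequency at least 0.6 times the one its base composition gives. By this measure 5 of the 15 windows (33.3%) were CpG-rich, one each of Igfbp7, Meig1, Ak3, Basp1 and F11r. The share was 33.5% over all 32851 windows, 29.8% over the 3815 windows of other genes under 0.3 FPKM in Control, and 71.0% over the 8578 windows of genes at 1 FPKM or more in Control. The members' share of windows is thus close to that of the other silent genes and below that of the expressed ones. Counted by gene, 5 of the 11 had a CpG-rich window, and Meig1, Plac1 and Dach2 gave more than 1 window each. The members' median CpG frequency, 0.494 times the one given by base composition, lay between 0.373 for the other silent genes and 0.783 for the expressed ones. No test of this was made. Tprg, Lcn2, Plac1, Dach2, Ccl20 and Spats2l had no CpG-rich window. The highest CpG content was that of Basp1, with 38 CpG in the 300 bases and a G+C content of 78.0%.

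**Figure D3:**
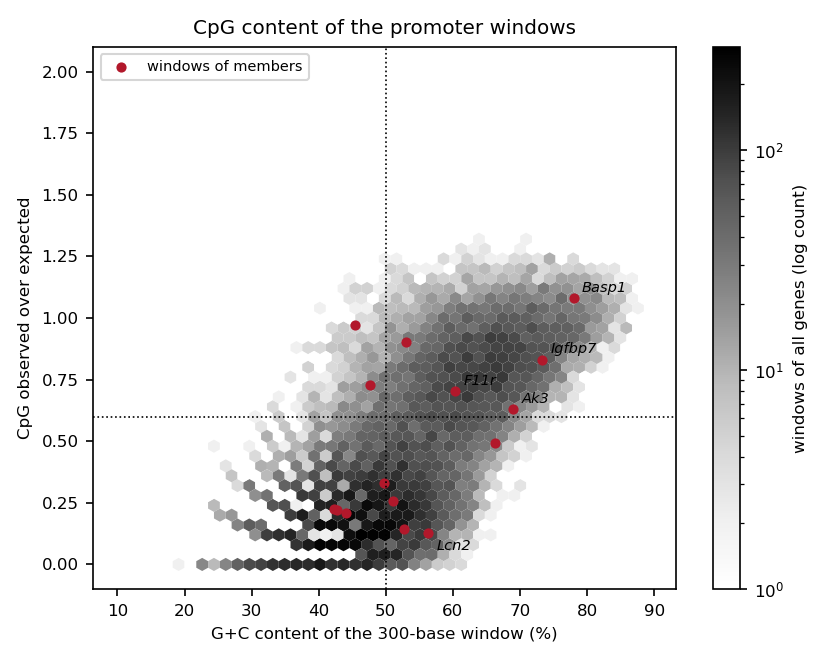
G+C content (%, horizontal) and CpG frequency over that given by base composition (vertical) of the 300-base promoter windows, with all RefSeq windows as grey hexagons (log count) and the 15 windows of members in red. Dotted lines mark 50% and 0.6, and 5 red points, those of Basp1, Igfbp7, F11r, Ak3 and 1 window of Meig1, lie in the upper right field.

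Short motifs were searched on both strands of the same windows. The general NF-kB pattern, in which any 5 letters stand between GGG and CC, was in 10 of the 15 windows (66.7%, against 50.8% of all windows), among them those of Lcn2 and Ccl20, which are known NF-kB targets in other cells. The GC box GGGCGG was in 8 (53.3% against 35.7%), and the CCAAT box in 4 (26.7% against 37.4%). ACGTG, the core of the hypoxia response element, was in 3 windows (20% against 19.6%), those of Igfbp7 and 2 of Meig1, one of which also holds CACGTG, the E-box that contains it (6.67% against 7.15%). TATAAA was in 1 window, of Dach2, and the AP-1 pattern TGANTCA in 1, of F11r, while the cyclic AMP response element TGACGTCA was in none. These are matches of letters and not sites shown to be bound.

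Among the secreted proteins Igfbp7 had the highest level of all members. It encodes a matrix-associated protein that binds insulin-like growth factors weakly and insulin more strongly, and lies on chromosome 5 of GRCm38 (77349240 to 77408041, minus strand). Its FPKM were 0.131 and 0.0800 in Control and 9.40 and 8.76 in iRhom KO, means of 0.106 ± 0.0363 and 9.08 ± 0.451 (SD, n = 2 libraries each). The iRhom KO mean was 85.9 times the Control mean, and the difference on the log2 scale was 3.98 (standard error 0.0903). It is also the only member above the median level of tested genes.

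Lcn2 encodes lipocalin 2, which binds bacterial iron carriers and is made by neutrophils and inflamed epithelia (chromosome 2, 32384633 to 32388252). Its FPKM were 0.0142 and 0.0721 in Control and 2.42 and 2.51 in iRhom KO, a difference of 2.45 (standard error 0.0998). The 2 Control values differ from each other but stand for an estimated 6.08 fragments in all. Neutrophil markers did not reach such levels: Ly6g was at most 0.0640 FPKM, S100a9 at most 0.113, and S100a8 was at 0.0934 and 0.0968 in Control and 0.331 and 0.327 in iRhom KO.

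Rarres2 encodes the precursor of chemerin, a chemoattractant and adipokine (chromosome 6, 48569696 to 48572789). It was measured at 0.158 and 0.256 FPKM in Control and 1.72 and 1.56 FPKM in iRhom KO, a mean 7.92 times that of Control and a log2 difference of 1.60 (standard error 0.114). Ccl20 encodes the ligand of the chemokine receptor CCR6, which draws lymphocytes and dendritic cells to mucosa (chromosome 1, 83116766 to 83119167). Its values were 0.132 and 0.163 FPKM in Control and 1.15 and 1.29 FPKM in iRhom KO, a ratio of 8.27 and a difference of 1.41 (standard error 0.0986).

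Sema3f, a secreted semaphorin that repels axons and endothelial cells through neuropilin 2 (chromosome 9, 107681500 to 107710475), stood at 0.0233 and 0.0185 FPKM in Control and at 1.33 and 1.67 FPKM in iRhom KO. Its difference was 1.93 (standard error 0.121), and the ratio between its 2 iRhom KO libraries was larger than for any other member but Tprg. Plac1 (X chromosome, 53069995 to 53240111) is normally expressed in trophoblast cells of the placenta and is also found in tumours. It had the highest Control mean of all members. Its FPKM were 0.272 and 0.243 in Control and 1.35 and 1.36 in iRhom KO, a ratio of 5.27 and a difference of 1.29 (standard error 0.0871).

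The proteins of cell membranes included the 3 lowest Control means, those of Anxa6, F11r and Basp1. F11r encodes the junctional adhesion molecule A of epithelial tight junctions (chromosome 1, 171437535 to 171464603), and was at 0.00702 and 0.0218 FPKM in Control and 1.39 and 1.27 FPKM in iRhom KO, a difference of 1.83 (standard error 0.0960). Anxa6, an annexin that binds phospholipids in the presence of calcium (chromosome 11, 54979108 to 55033445), was at 0.00638 and 0.0195 FPKM in Control and 2.11 and 2.57 FPKM in iRhom KO. Its difference of 2.47 (standard error 0.116) rests on a Control level of an estimated 3.32 fragments, the fewest of all members.

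Basp1 encodes a lipid-anchored protein of growth cones that also serves as a corepressor of WT1 (chromosome 15, 25363277 to 25413764). It was at 0.0180 and 0.0192 FPKM in Control and 1.37 FPKM in both iRhom KO libraries, a difference of 1.85 (standard error 0.0885). Clec1a, a C-type lectin receptor of endothelial and dendritic cells (chromosome 6, 129424772 to 129452000), was at 0.0612 and 0.0672 FPKM in Control and 1.68 and 1.51 FPKM in iRhom KO, a ratio of 24.8 and a difference of 1.89 (standard error 0.0955). Both genes gave near-equal values in the 2 Control libraries.

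The enzymes included the genes with the second and the third highest level. Ggh encodes gamma-glutamyl hydrolase, a lysosomal and secreted enzyme that shortens the polyglutamate tails which hold folates and antifolates in the cell (chromosome 4, 20042052 to 20066750). Its FPKM were 0.0318 and 0.0175 in Control and 5.51 and 5.39 in iRhom KO, where the mean was 5.45 ± 0.0846 (SD, n = 2 libraries). The difference was 3.50 (standard error 0.0797).

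Dbt encodes the E2 core subunit of the mitochondrial complex that commits branched-chain amino acids to breakdown (chromosome 3, 116513070 to 116549981). It was at 0.0222 and 0.0597 FPKM in Control and 2.69 and 2.89 FPKM in iRhom KO, a ratio of 68.1 and a difference of 2.60 (standard error 0.0947). Ak3, the adenylate kinase of the mitochondrial matrix that uses GTP (chromosome 19, 29020833 to 29047961), was at 0.208 and 0.128 FPKM in Control and 1.57 and 1.55 FPKM in iRhom KO, a ratio of 9.27 and a difference of 1.63 (standard error 0.103). Dbt and Ak3 are genes that most tissues express.

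The other intracellular proteins are those of Tprg, Meig1, Dach2 and Spats2l. Tprg, named as a gene regulated by p63, lies beside Trp63, the gene of p63, on chromosome 16 (25286817 to 25422344). Its FPKM were 0.257 and 0.161 in Control and 3.02 and 2.38 in iRhom KO, a ratio of 12.9 and a difference of 2.17 (standard error 0.143), the largest standard error among the members. Meig1 encodes a protein needed for sperm formation (chromosome 2, 3409043 to 3422648). It was at 0.103 and 0.132 FPKM in Control and 2.16 and 1.96 FPKM in iRhom KO, a difference of 2.05 (standard error 0.0955).

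Dach2, a transcriptional cofactor of eye and muscle development (X chromosome, 113297510 to 113836386), was at 0.281 and 0.223 FPKM in Control and 1.36 and 1.24 FPKM in iRhom KO. The ratio of 5.16 was the lowest among the 10 members for which one is given, and the difference was 1.26 (standard error 0.0988). Spats2l, an RNA-binding protein whose paralog is named for spermatogenesis (chromosome 1, 57774162 to 57948394), was at 0.145 and 0.115 FPKM in Control and 1.16 and 1.12 FPKM in iRhom KO. It had the lowest iRhom KO level of all members, with a ratio of 8.78 and a difference of 1.38 (standard error 0.0916).

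The relatives and partners are genes other than the 17, so by this choice none of them meets the rule. For each member, family members, receptors or pathway partners were listed after the members were known, 135 genes in all. Of these, 89 have a row and 63 were expressed highly enough to be tested. By limma 10 (15.9%) were called higher, beside 10.7% of all tested genes, and 17 (27.0%) lower, beside 21.9%. The split became 13 and 13 with trimmed mean scaling and 12 and 12 with quantile normalization. Under every alternative setting in which the gene was tested, and with each library left out, 10 of the 27 calls held, 4 higher and 6 lower (a filter at 5 FPKM leaves out some of them, Folr1 and Gap43 included), and the relatives named as called in the next paragraphs are among these 10 unless the contrary is said. Standard errors and p-values are from the same fit.

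Around Ggh, none of the genes of folate uptake and use was called higher. Of 10 tested, 6 were lower and 0 higher in limma (0 higher at an unadjusted p under 0.05). Folr1, the high-affinity folate receptor, fell from 3.05 and 2.89 FPKM to 0.416 and 0.501 FPKM, a log2 difference of -1.86 (standard error 0.0915, adjusted p = 0.00316 from limma). Tyms, thymidylate synthase, differed by -0.47 (adjusted p = 0.0122 from limma). It lies on chromosome 5, whose tested genes had a median difference of -0.23. The part of this shift in its value was not tested. The carriers Slc19a1 and Slc46a1 and the enzyme Mthfd1 were also called lower (-0.42, -0.39 and -0.25) and lost the call with either scaling between libraries and with some libraries left out. Fpgs, the synthase that adds the glutamates Ggh removes, was at 3.58 and 3.52 FPKM in Control and 3.18 and 3.26 FPKM in iRhom KO (adjusted p = 0.235 from limma).

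Around Dbt, the other subunits of the complex were expressed in both groups. Bckdhb, of the E1 component, was at 9.14 and 8.25 FPKM in Control and 12.8 and 11.3 FPKM in iRhom KO, a difference of 0.45 (adjusted p = 0.0313 from limma, up to 0.0980 with 1 library left out). Bckdha, its partner in E1, was at 5.57 and 5.79 FPKM against 3.70 and 4.88 FPKM (adjusted p = 0.102 from limma), and Dld, the E3 component, at 39.2 and 37.7 FPKM against 37.3 and 29.8 FPKM (adjusted p = 0.261 from limma). In Control, Dbt was therefore the one subunit near 0 while the others were between 5.57 and 39.2 FPKM. Ppm1k, the phosphatase that activates the complex, rose from 1.84 and 1.65 FPKM to 3.72 and 3.56 FPKM, a difference of 0.88 (standard error 0.0830, adjusted p = 0.00698 from limma), whereas its opposing kinase Bckdk was at 19.2 and 19.6 FPKM and at 18.7 and 20.9 FPKM (adjusted p = 0.795 from limma). Acadsb, a dehydrogenase further down the pathway, was called higher by 0.43 but lost the call whichever library was left out. Of the 12 tested genes of this pathway 3 were higher and 0 lower in limma (1 lower at an unadjusted p under 0.05).

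Gap43, which like Basp1 encodes a membrane-bound protein of growth cones, rose from 0.451 and 0.284 FPKM to 4.77 and 4.54 FPKM, a difference of 2.58 (standard error 0.123, adjusted p = 0.00316 from limma), and missed the rule only through its Control mean of 0.368 FPKM. Marcks was called higher (0.48) and Marcksl1 lower (-0.45), and both calls were lost with some of the libraries left out. Apod, a lipocalin like Lcn2, rose from 1.36 and 1.25 FPKM to 10.2 and 9.10 FPKM, a difference of 2.49 (standard error 0.0902, adjusted p = 0.00264 from limma), and Ptgds, another one, was at most 0.0910 FPKM. Lrp2, a receptor of lipocalin 2, was at most 0.0151 FPKM in every library.

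The semaphorins went both ways. Sema3a, like Sema3f a secreted class 3 semaphorin, rose from 33.3 FPKM in both Control libraries to 57.5 and 53.5 FPKM (difference 0.73, adjusted p = 0.00652 from limma). Sema3b, which lies on the same chromosome as Sema3f with 72.3 kb between the genes, fell from 1.10 and 1.11 FPKM to 0.473 and 0.396 FPKM (difference -0.78, standard error 0.0934, adjusted p = 0.00991 from limma). Sema3e was at 0.0533 and 0.0687 FPKM in Control and 0.374 and 0.398 FPKM in iRhom KO, below the level tested. Nrp2, the receptor of Sema3f, was at 20.8 and 18.7 FPKM in Control and 14.7 and 13.8 FPKM in iRhom KO (difference -0.46, adjusted p = 0.0224 from limma, up to 0.0826 with 1 library left out).

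Among the adenylate kinases other than Ak3, 4 were tested and 1 was called. Ak4, the other matrix form, was at 0.00403 and 0 FPKM in Control and 0.416 and 0.327 FPKM in iRhom KO, below the level tested. The cytosolic Ak1 was between 40.3 and 49.7 FPKM in all libraries (adjusted p = 0.361 from limma). Ak6, a nuclear form, fell from 43.4 and 41.9 FPKM to 27.5 and 24.6 FPKM (difference -0.70, adjusted p = 0.00924 from limma). The tested genes of chromosome 13, where it lies, had a median of -0.37.

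Of the annexins other than Anxa6, 8 were expressed highly enough to be tested. Anxa1, Anxa2 and Anxa5 lay between 150 and 536 FPKM in every library, and the 3 calls, Anxa5 higher (0.25) and Anxa4 and Anxa8 lower (-0.31 and -0.45), were each lost with some of the libraries left out. That of Anxa5 was lost whichever library was left out, and its difference was 0.097 with quantile normalization (adjusted p = 0.430 from limma). Of the tight junction partners of F11r, Tjp1 was at 11.7 to 13.5 FPKM (adjusted p = 0.429 from limma). The junction genes Ocln, Jam2, Jam3 and Esam were at most 0.0574 FPKM in every library of either group. Cgn, cingulin, was at 0 and 0.00720 FPKM in Control and 0.0557 and 0.0424 FPKM in iRhom KO, below the level tested.

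Igf2r, a receptor of insulin-like growth factor 2, fell from 11.4 and 9.65 FPKM to 4.88 and 5.11 FPKM (adjusted p = 0.00790 from limma; the median difference of its chromosome 17 was -0.38), while Igf1r was at 2.10 to 2.60 FPKM and Igfbp6 at 99.5 to 121 FPKM, neither called. The listed relatives of Rarres2 and Tprg that have a row were near 0. The chemerin receptors Gpr1 and Ccrl2 were at most 0.0860 FPKM, and Spag16, a partner of Meig1, at most 0.00885 FPKM. Trp63 was at most 0.0513 FPKM, so Tprg was expressed with its neighbour p63 near 0. Of the placenta genes Psg17 was at most 0.744 FPKM and Syna at most 0.175 FPKM, while Plac8, which shares only its name with Plac1, was called higher (0.82, adjusted p = 0.0183 from limma, up to 0.0904 with 1 library left out). Of the genes that work with Dach2, Six4 and Eya3 were not called, Six5 was called higher by 0.35 and lost the call whichever library was left out, and Eya1 was at 0.950 and 0.942 FPKM against 0.482 and 0.476 FPKM, below the level tested. None of the 5 tested feedback genes of NF-kB, which drives Ccl20 in other cells, was called higher in limma or had an unadjusted p under 0.05 in that direction: Nfkbia was called lower (-0.38, adjusted p = 0.0181 from limma, up to 0.0955 with 1 library left out), Tnfaip3 was at 1.90 and 1.80 FPKM against 3.56 and 2.12 FPKM (adjusted p = 0.174 from limma), and Nfkbiz, Relb and Nfkb2 were not called. Birc3, listed with them, was below the level tested, at 0.496 and 0.387 FPKM in Control and 0.885 and 0.791 FPKM in iRhom KO.

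**Figure D4:**
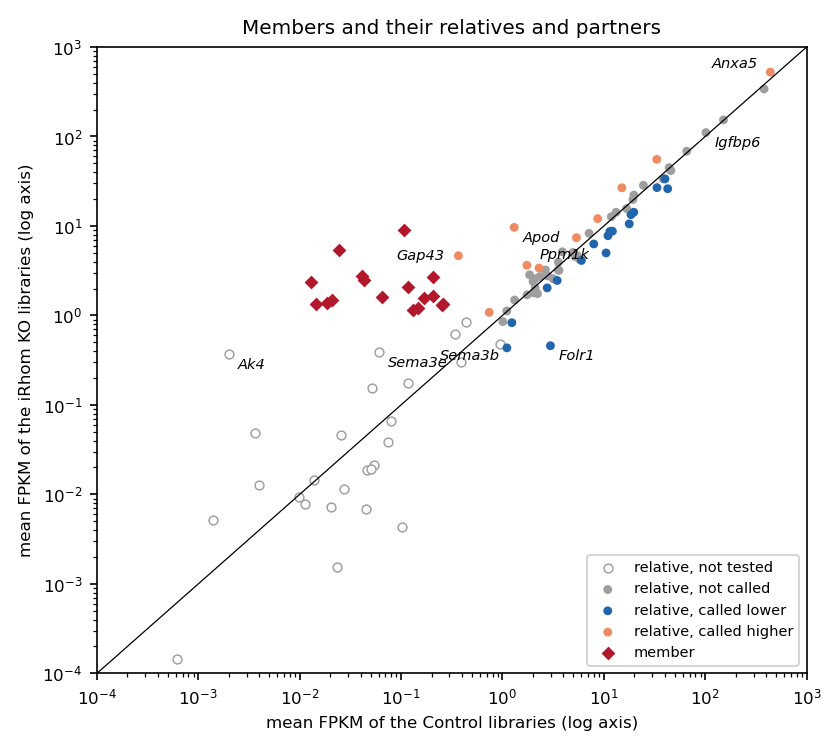
Mean FPKM in Control (horizontal, log axis) and in iRhom KO (vertical, log axis) of the 89 listed relatives with a row (circles, coloured by their call in limma, open where below the level tested) and of the 17 members (red diamonds). The line marks equal levels. Most relatives lie near it, Gap43 and Apod lie above it near the members, Folr1 and Sema3b below it, and Ak4 and Sema3e are among the weakly expressed genes above it.

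The 17 genes were scattered over the genome. They lie on 12 chromosomes, 3 on chromosome 1 and 2 each on chromosomes 2, 6 and X, and the nearest pair, Ccl20 and Spats2l, is 25.2 Mb apart. Of the 34 nearest rows on either side, 20 were tested, of which 2 (10%) were called higher and 4 (20%) lower, near the shares of 10.7% and 21.9% over all tested genes. With no filter on low values, and without S20, none of the flanking genes passed in limma, while 10 and 7 of them had an unadjusted p under 0.05.

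Within 500 kb of a member, 138 other genes were tested, of which 14 (10.1%) were called higher and 22 (15.9%) lower, with a median difference of -0.04 and a range from -1.67 to 0.86. These counts were 23 and 16 with trimmed mean scaling and 20 and 14 with quantile normalization. Of these 36 calls 13 held under every setting in which the gene was tested (Inka1, for one, falls under the filter at 5 FPKM), and only Inka1 near Sema3f (0.86) and Vcam1 near Dbt (0.72) among them were higher. No neighbour reached the smallest difference of a member, 1.26. The rule forced a minimum difference on the members and none on the neighbours, so this gap is in part made by the choice. Around Lcn2, 7 of 24 tested genes were lower and 0 higher in limma (1 higher at an unadjusted p under 0.05), with Fam129b (74.0 and 76.6 FPKM against 44.1 and 42.1 FPKM) the strongest expressed of them. The lowest value, -1.67, was that of Gpnmb, a lysosomal glycoprotein 464 kb from Rarres2.

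Some members overlap other genes, and whether the libraries kept the strand is not given in the sources used here, so reads in the shared stretches cannot be told apart. Polr2b, a subunit of RNA polymerase II that overlaps Igfbp7, was at 46.1 and 43.8 FPKM in Control and 37.2 and 38.6 FPKM in iRhom KO. Its difference of -0.24 (adjusted p = 0.0503 from limma) was opposite in direction to that of Igfbp7. The tested genes of chromosome 5, where both lie, had a median of -0.23. The pseudogene Gm4596, which lies within Dbt, was at 3.55 and 4.36 FPKM against 7.56 and 5.63 FPKM (difference 0.67, adjusted p = 0.0488 from limma, up to 0.125 with 1 library left out). Lrrc61, which overlaps Rarres2, was at 0.0930 and 0.403 FPKM against 0.120 and 0.445 FPKM, and Cdc37l1, which overlaps Ak3, at 3.45 and 3.82 FPKM against 3.84 and 2.88 FPKM (adjusted p = 0.593 from limma). Dclre1c, a DNA repair nuclease that starts 1.48 kb from the start of Meig1, was at 0.701 and 0.795 FPKM against 1.22 and 1.19 FPKM (difference 0.45, adjusted p = 0.0268 from limma, up to 0.105 with 1 library left out).

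**Figure D5:**
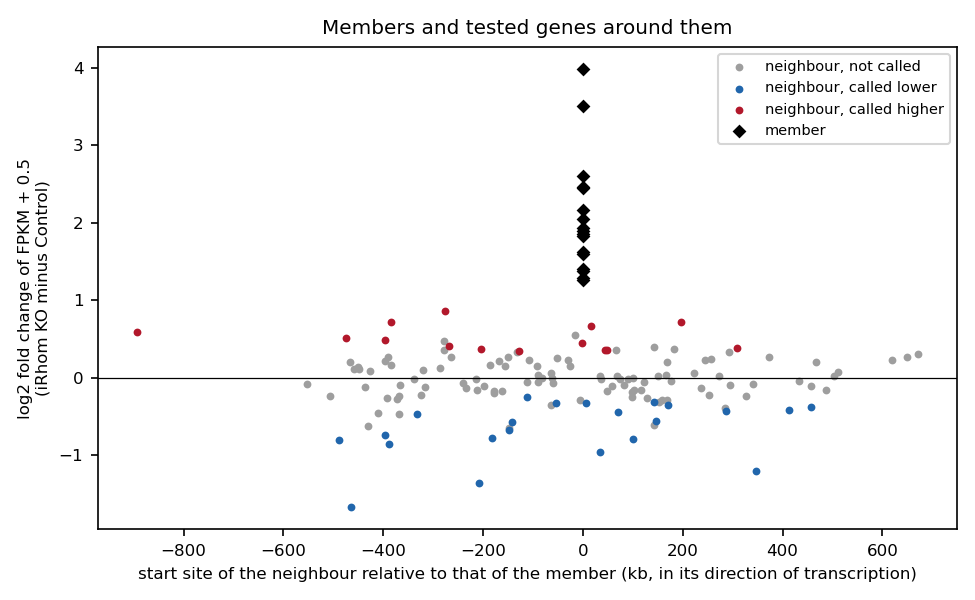
Difference between iRhom KO and Control on log2 of FPKM plus 0.5 (vertical) for the 138 tested genes within 500 kb of a member, by the distance of their start from that of the member in kb (horizontal, in its direction of transcription). Grey points were not called, blue ones called lower and red ones called higher, and black diamonds are the 17 members. The members lie at 1.26 or above and every neighbour at 0.86 or below, a gap that the rule for choosing the members helped to make.

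Few of the members stood in a list of known function. Of 26 lists of pathways and cell type markers, 2 hold a member. F11r is in the list of epithelial junctions, where 10 of 25 symbols have a row, 5 were tested, and 1 (F11r) was higher and 1 lower. Ccl20 is in the list of chemokines and cytokines, where 34 of 64 symbols have a row, 13 were tested, 6 were higher and 1 was lower. Over all tested genes 10.7% were called higher and 21.9% lower. The 6 include Ccl20 itself, which the rule chose as higher and which passed the filter only through iRhom KO. The other 15 members are in none, including the lists of hypoxia, interferon, p53, Wnt, TGF-beta and ERK output. No member is in any of the 13 lists of cell type markers. Krt8, which met both limits but was left out by name, is in the list of colon epithelium.

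The marker lists moved in different directions. The summed level of the leukocyte markers (10 of 24 with a row) was 25.3 to 25.9 FPKM in Control and 13.2 to 13.3 FPKM in iRhom KO, with Cd14 and Cd68 called lower, while Ptprc, the defining gene, was at most 0.00630 FPKM. Endothelial markers (6 of 12) summed to 4.10 to 4.29 FPKM in Control and 1.49 to 1.76 FPKM in iRhom KO, with Vwf called lower and Pecam1 at most 0.00505 FPKM. Egfl7, the other endothelial marker tested, had a mean of 1.14 FPKM in Control and 1.49 FPKM in iRhom KO (adjusted p = 0.0974 from limma), and S100a8 among the leukocyte markers had means of 0.0951 and 0.329 FPKM, below the level tested. The fibroblast markers (8 of 13) were at 40.8 to 44.0 FPKM and 58.6 to 64.1 FPKM, with Col1a2 the largest part. The colon epithelium markers were at no more than 20.1 FPKM in Control and 37.0 to 38.2 FPKM in iRhom KO. Of these, Krt8 and Krt18 were called higher, and Krt20 was not called (adjusted p = 0.147 from limma). Krt8 met both limits of the rule and passed the filter only through iRhom KO, so its call is no evidence. The summed hepatocyte markers (2 of 12) were at 0.838 and 0.878 FPKM in Control and 8.67 and 8.80 FPKM in iRhom KO through Afp, and the germ cell markers (9 of 32), of interest beside Meig1, at 1.16 to 1.20 FPKM and 1.34 to 1.44 FPKM with no gene high enough to be tested. Neuronal markers (7 of 16) summed to 62.5 to 62.8 FPKM and 73.9 to 76.7 FPKM, with Nefl the largest part. Of the 5 neuronal markers tested 3 were called higher, namely Tubb3, Nefl and Gap43. Nefm (-0.70, adjusted p = 0.0110 from limma) and Syt1 (-0.49, adjusted p = 0.0202 from limma) were called lower. Gap43 passed the filter only through iRhom KO, as did Afp and, among the fibroblast markers, Acta2. Cd68 and Vwf passed it only through Control. The shares over all tested genes were 10.7% higher and 21.9% lower. Muscle markers (9 of 19) summed to 15.9 to 16.7 FPKM and 25.7 to 29.5 FPKM through Nppb, while Tnnt2, the other muscle marker tested, was called lower (-1.11, adjusted p = 0.00499 from limma). The part of these markers in the members' values was not tested.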

How the data were processed

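RNA of CT26 cells was sequenced in 4 libraries, 2 of each group. The deposited values are FPKM per gene and library, which the authors made with HISAT2 (alignment to GRCm38) and StringTie (quantification); versions, annotation and strand setting are not given in the sources used here. The fold and log2 fold columns of the table hold the authors' comparison and were not used. Columns carry library tags without replicate numbers, and their names give the group.

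The table has 21724 rows. Those with numeric names (19) were dropped, and where a symbol had several rows (26 symbols, 54 rows) these were added up, giving 21677 symbols. The rule was applied to the table as deposited. The 10271 genes whose mean reached 1 FPKM in either group entered limma 3.58.1 in R 4.3.3, as log2 of FPKM plus 0.5 (variance trend, not robust, Benjamini-Hochberg over the genes tested, two-sided). Single genes were tested only in this fit, because with 2 libraries per group the smallest two-sided p of an exact permutation test is 0.333. On simulated data of the same size, 100 of 100 genes changed by 1 on the log2 scale and 100 of 100 changed by 2 were called, with 13 false calls. The simulation gave all genes of one level the same spread and changed far fewer genes than were called here. It therefore does not give the recovery in the real data.

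Every member was named; some relatives counted in the lists are not reported here by name. Positions are from the GENCODE annotation and promoters from RefSeq, both of GRCm38. Depth was estimated from the smallest steps of FPKM times transcript length, and fragments per gene from it with the longest transcript, so both are rough; a ratio is given from 10 Control fragments on. Protein sequences were not used here. The members and lists were chosen with earlier results of these data known, the relatives after the members were known. As alternatives, pseudocounts of 0.1 and 1 were tried, then no filter and a filter at 5 FPKM, scaling by a trimmed mean (30% of the log ratios, 5% of the levels), quantile normalization, robust limma, each library left out, and other limits of the rule.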

Additional observations from a re-analysis of the deposited data

How the results depend on the processing

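The log2 differences of the 17 members kept their direction in all 172 values from the alternatives. The rule chose the members by the FPKM of these same libraries, so this was close to fixed in advance and is no evidence about them. The median of the 17 differences moved from 1.89 to 3.36 with a pseudocount of 0.1 and to 1.28 with 1. With a mean of at least 5 FPKM required, 2 members were tested and called, since the filter takes out the other 15. The number of genes the rule found was 8 with Control under 0.1 FPKM, 31 with Control under 0.5 FPKM (adding Acta2, Gap43 and Slpi among others), 64 with iRhom KO at 0.5 FPKM or more and 6 at 2 FPKM or more. It was 17 to 24 with 1 library left out, 24 without S20, and 18 with either scaling, which added Junos.

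Leaving out 1 library lowered the number of called genes from 3350 to between 1657 (without S20) and 2290 (without S18), that of called relatives from 27 to between 13 (without S17 or S18) and 15 (without S19), and that of called genes within 500 kb from 36 to between 18 (without S20) and 24 (without S17). Of the 6 flanking calls 0 to 2 were left (0 without S20, 1 without S17 or S19, 2 without S18), 0 with no filter and 3 with quantile normalization. With no filter 19 genes within 500 kb were called. Fewer libraries leave fewer degrees of freedom, and no filter adds genes to the adjustment.

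No paired analysis was possible because the value columns carry no replicate numbers. The limits of the data are 2 libraries per group, 1 knockout clone and Control levels of a few fragments. Alternatives for relatives and neighbours were added after the data were seen.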

Other observations

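The 9 rows that met both limits and were left out by name had the following values, given without a test. Krt8, a keratin of simple epithelia, was at 0.0278 and 0 FPKM in Control and 6.80 and 7.03 FPKM in iRhom KO, Cx3cl1, the chemokine fractalkine, at 0.00473 and 0.00735 FPKM against 1.25 and 1.61 FPKM, and Adm, the vasodilator adrenomedullin, at 0.0809 and 0.0532 FPKM against 1.61 and 1.47 FPKM. The 6 predicted or Riken genes were between 0 and 0.379 FPKM in the Control libraries and between 1.02 and 4.05 FPKM in the iRhom KO libraries. Among them Gm7466, at 0.0315 and 0.0509 FPKM in Control, reached 4.05 and 3.53 FPKM in iRhom KO.

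The rows just outside the Control limit under the wider limit of 0.5 FPKM included Acta2, the actin of smooth muscle and myofibroblasts, at 0.476 and 0.459 FPKM in Control and 4.57 and 4.88 FPKM in iRhom KO. Afp, the fetal serum protein of liver and yolk sac, was at 0.581 and 0.537 FPKM in Control, above both limits used for silence, and at 8.32 and 8.45 FPKM in iRhom KO (log2 difference 3.07, adjusted p = 0.00154 from limma).

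Fam107b, which lies near Meig1, differed between the 2 Control libraries more than between the groups, with 23.2 FPKM in S17, 4.44 FPKM in S19, 6.48 FPKM in S18 and 6.33 FPKM in S20.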
